A study of Homo sapiens with 2 samples.

Results

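Cells take up iron by binding transferrin to its receptor, bring it into the cytosol through a divalent metal transporter, store the excess in ferritin and release it through ferroportin. A pair of iron regulatory proteins, IRP1 and IRP2, tune this system after transcription. When iron is scarce they bind hairpins called iron-responsive elements, which protects the transferrin receptor mRNA from decay through elements in its 3′ end and holds back translation of ferritin and ferroportin through elements in their 5′ ends. Free iron also feeds lipid peroxidation, which glutathione peroxidase 4 opposes and which can end in a form of cell death called ferroptosis. Dividing cells, prostate carcinoma cells among them, are known for a high demand for transferrin iron.

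The genes described here are 10 named members of this system: TFRC, FTH1, FTL, SLC11A2, SLC40A1, ACO1, IREB2, HMOX1, NCOA4 and GPX4. Their transcripts were measured in LNCaP, an established human prostate carcinoma line, 3 days after infection with lentivirus. Control cells were infected with virus from pLKO.1 without an insert, and knockdown cells with virus encoding a hairpin against KDM4A, a histone H3 demethylase, so both groups carry a lentiviral insertion. Each group was 1 Affymetrix U133 Plus 2.0 array made from 3 µg of RNA, and the comparison asks which mRNAs change with KDM4A depletion. A single hairpin and a single culture per group limit the model, and an empty vector, not another hairpin, is the control.

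Members were found as the probe sets that the platform annotation gives to exactly 1 gene. That gave 18 probe sets for 8 of the 10 members, out of 34880 probe sets for 17689 genes. FTH1, the ferritin heavy chain, and IREB2, which encodes IRP2, have no value below. No deposited probe set was given to either gene alone by the annotation used here. Whether such probe sets exist on the array but were left out of the deposited values was not checked. Every difference is the knockdown value minus the control value of log2-scale signals that the authors normalised with RMA (robust multi-array averaging, which summarises the probes of a probe set) and that are centred so that both arrays of a probe set sum to 0. Levels are lost by that centring, and the base of 2 is assumed from RMA, since no source used here states it. With 1 array per group there is no replicate check, and no p-value could be had. Errors written as ± SD describe how far a gene's probe sets differ from each other on these arrays; they say nothing of variation between cultures. "At least 2-fold" is a rule of size, not a test.

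Reference sequences for the members were taken from RefSeq (GRCh38.p14), which held 15 start-site windows for 8 of the 10 members, all but FTH1 and HMOX1. The first sequence is the part of FTL, the ferritin light chain, that makes its mRNA a target of the iron regulatory proteins. It lies on the plus strand at chr19:48965329-48965358, in the first 50 bases of the transcript, and the capitals mark the loop of the hairpin, found as CAGTGN on the gene strand.
FTL: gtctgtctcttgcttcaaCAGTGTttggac
Of all 35116 windows in the table, 6.36% held CAGTGN in the 50 bases from the start. Of the members, 1 of the 2 start sites of NCOA4 did too, 27 bases from the start, and the windows of the others did not. The elements known in TFRC and SLC11A2 lie at the 3′ end of the mRNA, outside these windows, and are not shown. SLC40A1, whose element is known at the 5′ end, had no match in the 50 bases searched, and bases further in were not searched. A missing match therefore does not mean a missing element, and the match in NCOA4 describes letters only.

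The promoters of the lowest member, TFRC, the highest, ACO1, and of FTL follow, each as the 250 bases before the start, read 5′ to 3′ on the gene strand. They are shown because these genes differ most, or carry the sequence above. Capitals mark GC boxes, the letters GGGCGG on either strand. TFRC lies on the minus strand at chr3:196082091-196082340, ACO1 on the plus strand at chr9:32384393-32384642 and FTL on the plus strand at chr19:48965059-48965308.
TFRC: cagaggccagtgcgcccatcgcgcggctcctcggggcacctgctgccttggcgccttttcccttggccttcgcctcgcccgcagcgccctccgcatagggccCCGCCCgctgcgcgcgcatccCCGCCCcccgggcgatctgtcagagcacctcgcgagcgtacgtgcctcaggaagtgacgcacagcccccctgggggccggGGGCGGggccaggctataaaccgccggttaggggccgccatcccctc
ACO1: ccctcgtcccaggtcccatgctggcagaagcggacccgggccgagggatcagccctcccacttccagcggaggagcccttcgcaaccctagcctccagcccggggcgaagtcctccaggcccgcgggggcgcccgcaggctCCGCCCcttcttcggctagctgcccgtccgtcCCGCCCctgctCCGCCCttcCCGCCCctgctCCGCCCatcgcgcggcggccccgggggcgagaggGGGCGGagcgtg
FTL: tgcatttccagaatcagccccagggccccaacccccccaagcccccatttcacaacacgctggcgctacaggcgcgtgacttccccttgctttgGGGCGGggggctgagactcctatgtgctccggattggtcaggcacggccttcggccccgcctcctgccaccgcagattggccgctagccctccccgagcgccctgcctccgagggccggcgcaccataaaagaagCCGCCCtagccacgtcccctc
GC boxes, which bind SP1-type factors, numbered 3 in TFRC, 6 in ACO1 and 2 in FTL, and 42.6% of all windows of this length held at least 1. The letters TGACG are the core of a cyclic AMP response element. They occurred once in TFRC, 73 bases before the start, and in neither of the other promoters shown. Among the other members they occurred once in SLC40A1 and once in each window of GPX4. Of all windows, 21.2% held them on either strand. No member window held CACGTG, the E-box that MYC binds, or TGACNNNGC, the core of the antioxidant response element, against 6.34% and 10.9% of all windows on either strand. A match describes the letters and is not a measured binding site.

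KDM4A, the target of the hairpin, was lower in the knockdown. Its probe set 203205_at read 0.73 in the control and -0.73 in the knockdown, and 203204_s_at read 0.45 and -0.45. The mean difference was -1.18 ± 0.40 (SD, n = 2 probe sets), a 2.26-fold lower signal. Only the first of the 2 probe sets passed 2-fold on its own (-1.46 and -0.90).

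Across the 8 members, TFRC was lower by more than 2-fold and the other 7 lay between -0.33 and 0.52. The members' median difference was -0.032, beside 0.020 for all 17689 genes, whose quartiles were -0.14 and 0.18. Of the iron genes with a value, 4 of 8 lay below 0, and so did 46.3% of all genes. TFRC was the 1 member at least 2-fold lower, where 1.44% of all genes were, and 0 members were at least 2-fold higher, where 1.16% of all genes were. At 1.5-fold the members counted 1 lower and 0 higher, where 4.38% and 4.30% of all genes were, and at 3-fold they counted 0 either way, where 0.458% were lower and 0.254% higher. By probe set, 3 of the members' 18 were at least 2-fold lower, all of TFRC, and 0 were at least 2-fold higher, where 2.39% and 1.48% of the 34880 probe sets were. These values were known when the members were listed, so nothing is read from the counts.

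**Figure D1:**
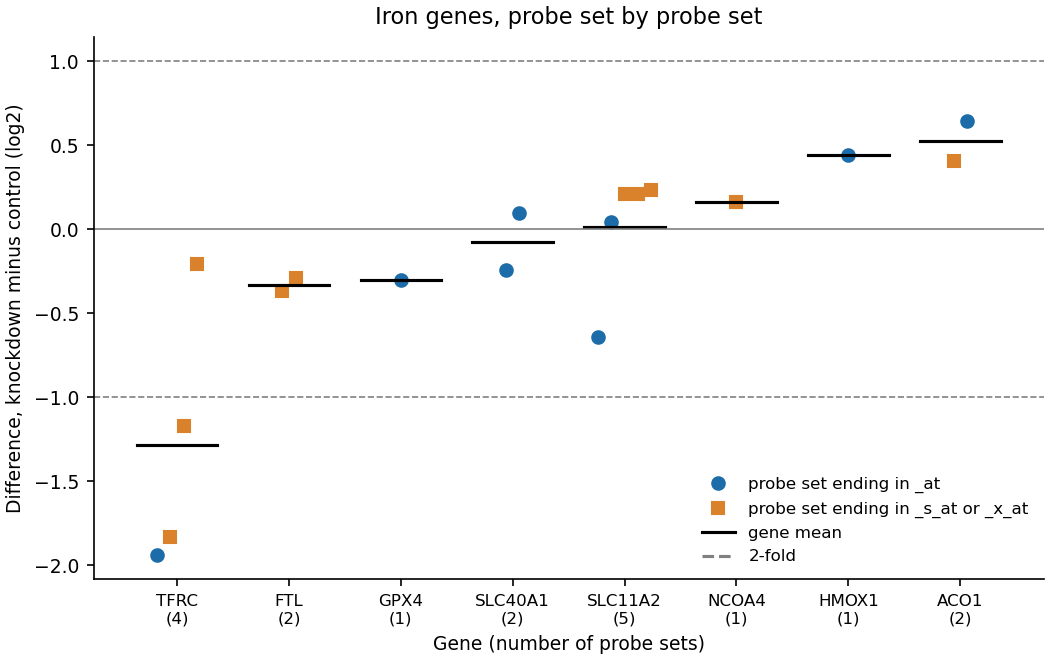
Difference between knockdown and control (log2, vertical axis) of each probe set of the 8 members with a value; circles are probe sets ending in _at, squares those ending in _s_at or _x_at, black bars gene means and dashed lines 2-fold. The 4 TFRC probe sets run from -1.94 to -0.20, and no probe set of another member reaches either dashed line.

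Among the uptake genes, TFRC encodes transferrin receptor 1, the main route of iron into dividing cells. Its probe set 208691_at read 0.97 in the control and -0.97 in the knockdown, and 207332_s_at, designed on the RefSeq mRNA, read 0.92 and -0.92. Probe set 237215_s_at read 0.59 and -0.59, and 240686_x_at read 0.10 and -0.10. All 4 were lower in the knockdown, but by amounts that ranged from 1.15-fold to 3.83-fold. The mean difference was -1.29 ± 0.80 (SD, n = 4 probe sets), a 2.44-fold lower signal, and it placed TFRC 141st from the lowest of 17689 genes, beside KDM4A itself at 170th. The spread between its probe sets was wide: the median SD among the 1136 genes with 4 probe sets was 0.23, and 2.46% of them had an SD as large as that of TFRC. Without 240686_x_at, the probe set nearest 0, the mean was -1.65, and leaving out any other 1 gave values between -1.33 and -1.07. TFRC therefore stayed past 2-fold whichever probe set was left out.

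TFRC mRNA is also known to be more abundant in dividing than in resting cells. MKI67, a marker of dividing cells, was lower in the same knockdown array by -0.67 ± 0.12 (SD, n = 4 probe sets), a 1.59-fold lower signal. Its part in the TFRC value was not tested. In RNA from a whole culture, fewer cells of a kind and less RNA per cell cannot be told apart.

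SLC11A2 encodes DMT1, which moves ferrous iron out of the endosome once transferrin has released it. Its 5 probe sets did not share a direction. Probe set 237106_at read 0.32 in the control and -0.32 in the knockdown, a difference of -0.64. The other 4 read higher in the knockdown, by 0.042 to 0.23, and the 3 that end in _s_at or _x_at lay between 0.21 and 0.23. The mean of 0.011 ± 0.37 (SD, n = 5 probe sets) thus averages opposed values, and it was 0.17 without 237106_at. SLC11A2 is known to be spliced into transcripts with and without a 3′ iron-responsive element; the annotation used here does not say which form each probe set detects.

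Export was represented by SLC40A1, which encodes ferroportin, the exporter of cellular iron. Probe set 223044_at read 0.12 in the control and -0.12 in the knockdown, while 233123_at read -0.047 and 0.047. The differences of -0.24 and 0.094 lie on either side of 0, and their mean was -0.075 ± 0.24 (SD, n = 2 probe sets). No direction can be given for ferroportin from these arrays.

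Of the storage genes, FTL encodes the light chain of the ferritin shell. Probe set 213187_x_at read 0.18 in the control and -0.18 in the knockdown, and 212788_x_at read 0.15 and -0.15. Both were lower in the knockdown, with a mean of -0.33 ± 0.056 (SD, n = 2 probe sets), a 1.26-fold lower signal, and 10.8% of all genes lay lower. Both probe sets end in _x_at, the suffix for probes that can match other transcripts, so no FTL value remains without such probe sets. NCOA4, the receptor that carries ferritin to the lysosome for breakdown, had 1 probe set, which read -0.081 in the control and 0.081 in the knockdown. Its difference of 0.16 lay between the quartiles of all genes, and its probe set, 210774_s_at, can match several transcripts. FTL and NCOA4 lay on opposite sides of 0, each by less than 2-fold, and nothing is read from that contrast.

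Iron sensing was represented by ACO1, which encodes IRP1, a protein that is cytosolic aconitase while it holds an iron-sulfur cluster and an RNA-binding regulator once it has lost it. Probe set 237622_at read -0.32 in the control and 0.32 in the knockdown, and 207071_s_at, designed on the RefSeq mRNA, read -0.20 and 0.20. Both were higher in the knockdown. The mean of 0.52 ± 0.17 (SD, n = 2 probe sets), a 1.44-fold higher signal, was the highest of the 8 members, and 5.38% of all genes lay higher. The median SD among the 4485 genes with 2 probe sets was 0.14, close to that of ACO1.

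HMOX1 encodes heme oxygenase 1, the inducible enzyme that frees iron from heme. Its 1 probe set read -0.22 in the control and 0.22 in the knockdown, a difference of 0.44 or 1.36-fold higher, and 7.56% of all genes lay higher. GPX4 encodes the selenoenzyme that reduces lipid hydroperoxides in membranes. Its 1 probe set read 0.15 in the control and -0.15 in the knockdown, a difference of -0.30 or 1.24-fold lower. Both genes rest on a single probe set, so no SD can be given and the error of either value is unknown.

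Set side by side by the known place of the iron-responsive element, the mRNAs with an element at the 3′ end read -1.29 (TFRC) and 0.011 (SLC11A2, whose probe sets disagree), and those with one at the 5′ end read -0.33 (FTL) and -0.075 (SLC40A1). Each class holds few genes with a value, and elements at the 5′ end act on translation, which mRNA values do not measure. No pattern by class is therefore read from these values. In order from lowest to highest the genes were TFRC, FTL, GPX4, SLC40A1, SLC11A2, NCOA4, HMOX1 and ACO1. FTL and GPX4 differed by less than the spread between the FTL probe sets, SLC40A1 and SLC11A2 by less than either gene's spread, and HMOX1 and ACO1 by less than that of ACO1. The gap from TFRC to FTL, -0.96, was larger than the SD of either gene. Even so, the TFRC probe set nearest 0 (-0.20) lay above both FTL probe sets. All these spreads compare probe sets on the same arrays, so whether the order of the genes would hold in other cultures was not tested.

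**Figure D2:**
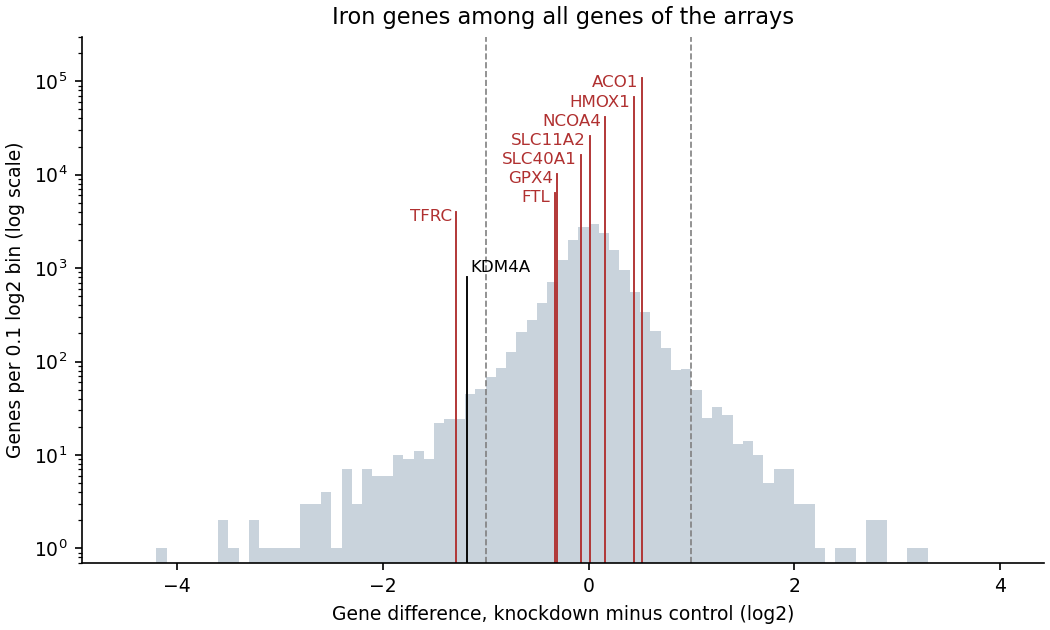
Number of genes per 0.1 log2 bin (vertical axis, log scale) by difference between knockdown and control (horizontal axis, log2), over 17689 genes; red lines are the 8 iron genes with a value, the black line is KDM4A and dashed lines are 2-fold. TFRC (-1.29) lies beside KDM4A (-1.18) in the lower tail, and the other iron genes lie between -0.33 and 0.52.

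Further genes were read from 6 lists that were not picked gene by gene for how they moved. The lists cover the rest of iron metabolism and, in the last, cystine, glutathione and ferroptosis genes. In all, 100 different genes were measured of 111 listed. Of these, 41 lay below 0 and 59 above, where 46.3% of all genes lay below 0, and the median was 0.080. At least 2-fold lower were 4, where 1.44% of all genes were, and at least 2-fold higher were 0, where 1.16% of all genes were. The lists were drawn up with earlier results of these data known, so nothing is read from these counts or from those of the single lists. The 4 lower genes were SLC7A11, GCLM, CPOX and CHAC1. All but CPOX came from the list of cystine, glutathione and ferroptosis genes, so their shared function comes from how that list was drawn up.

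Transferrin and ferrous iron uptake genes other than the members lay at a median of 0.15; 8 of the 13 were above 0 and none was at least 2-fold apart. SLC39A8, a ZIP transporter of zinc, manganese and iron, lay at 0.91 ± 0.57 (SD, n = 6 probe sets), all 6 above 0 and from 0.13 to 1.58. STEAP3, the endosomal ferrireductase that prepares iron for DMT1, lay at 0.52 ± 0.096 (SD, n = 2 probe sets), and its relative STEAP2 at 0.42. LCN2, a siderophore-binding lipocalin, lay at -0.38. The endosomal reductase and the receptor thus lay on opposite sides of 0.

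Export, hepcidin axis and iron chaperone genes had a median of -0.053, with 7 of 12 measured genes below 0 and none at least 2-fold apart. PCBP2, a cytosolic iron chaperone and RNA-binding protein, lay at -0.44 ± 0.28 (SD, n = 6 probe sets), with all 6 below 0. PCBP4, of the same family, lay at 0.73. BMP6, which drives hepcidin in the liver, lay at 0.36 ± 0.24 (SD, n = 2 probe sets), and HJV, its co-receptor, at -0.30.

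Of 8 measured genes for turnover of the iron regulatory proteins or for other mRNAs with an iron-responsive element, 6 lay above 0 and none was at least 2-fold apart, with a median of 0.090. FBXL5, the iron-sensing ligase subunit that marks IRP2 for destruction, lay at 0.35 ± 0.016 (SD, n = 2 probe sets), and HERC2, a ligase that acts on FBXL5, at 0.32 ± 0.13 (SD, n = 2 probe sets). CDC14A and CDC42BPA, whose mRNAs carry an element at the 3′ end as that of TFRC does, lay at 0.38 ± 0.39 and -0.42 ± 0.51 (SD, n = 4 probe sets each). All 4 probe sets of CDC14A lay above 0, between 0.055 and 0.86, while those of CDC42BPA lay on both sides of it, between -1.15 and 0.027.

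The median of the heme genes was 0.14, and 12 of the 16 measured were above 0. CPOX, coproporphyrinogen oxidase, was 2.16-fold lower (-1.11, 1 probe set). ALAS1, which makes the first and limiting intermediate of heme outside red cells, lay at 0.93, short of 2-fold, on 1 probe set. FLVCR2, of the heme transporter family, lay at 0.39 ± 0.37 (SD, n = 3 probe sets), and BLVRB, a biliverdin reductase, at 0.33. The first enzyme of heme synthesis and a late one therefore lay on opposite sides of 0.

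Mitochondrial iron and iron-sulfur cluster genes had a median of 0.019, close to that of all genes, with 12 of 27 below 0 and none at least 2-fold apart. CISD2, an iron-sulfur protein of the endoplasmic reticulum and mitochondrial outer membrane, lay at -0.68 ± 0.065 (SD, n = 2 probe sets). NFS1, the desulfurase that supplies sulfur to the cluster, lay at 0.58 ± 0.17 (SD, n = 2 probe sets). The ferredoxins FDX1 and FDX2, which carry electrons for cluster assembly or steroid synthesis, lay at 0.60 ± 0.15 (SD, n = 3 probe sets) and 0.58.

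Cystine, glutathione and ferroptosis genes included the lowest gene of the 6 lists, SLC7A11, and the highest, ACSL4. The list median was 0.038, and 3 of 26 measured genes were at least 2-fold lower, where 1.44% of all genes were. SLC7A11, the cystine carrier that feeds glutathione synthesis, was 3.17-fold lower (-1.66 ± 0.51, SD, n = 3 probe sets). GCLM, the modifier subunit of the limiting enzyme of glutathione synthesis, was 2.38-fold lower, with 3 probe sets between -1.30 and -1.17. GCLC, the catalytic subunit of the same enzyme, lay at 0.017 ± 0.19 (SD, n = 3 probe sets). Glutathione synthetase (GSS) lay at -0.14 and glutathione reductase (GSR) at 0.091. SLC3A2 (-0.42) and TXNRD1 (-0.50) of the same list were also lower, while 14 of its 26 measured genes lay above 0. GCLC, GSS, GSR, SLC3A2 and TXNRD1 were named after their values were seen. No direction is read for the glutathione genes as a group. CHAC1, which degrades glutathione, was 2.09-fold lower on 1 probe set. ACSL4, which loads membranes with the polyunsaturated lipids that ferroptosis oxidises, lay at 0.94 on 1 probe set, while GPX4 itself lay at -0.30.

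**Figure D3:**
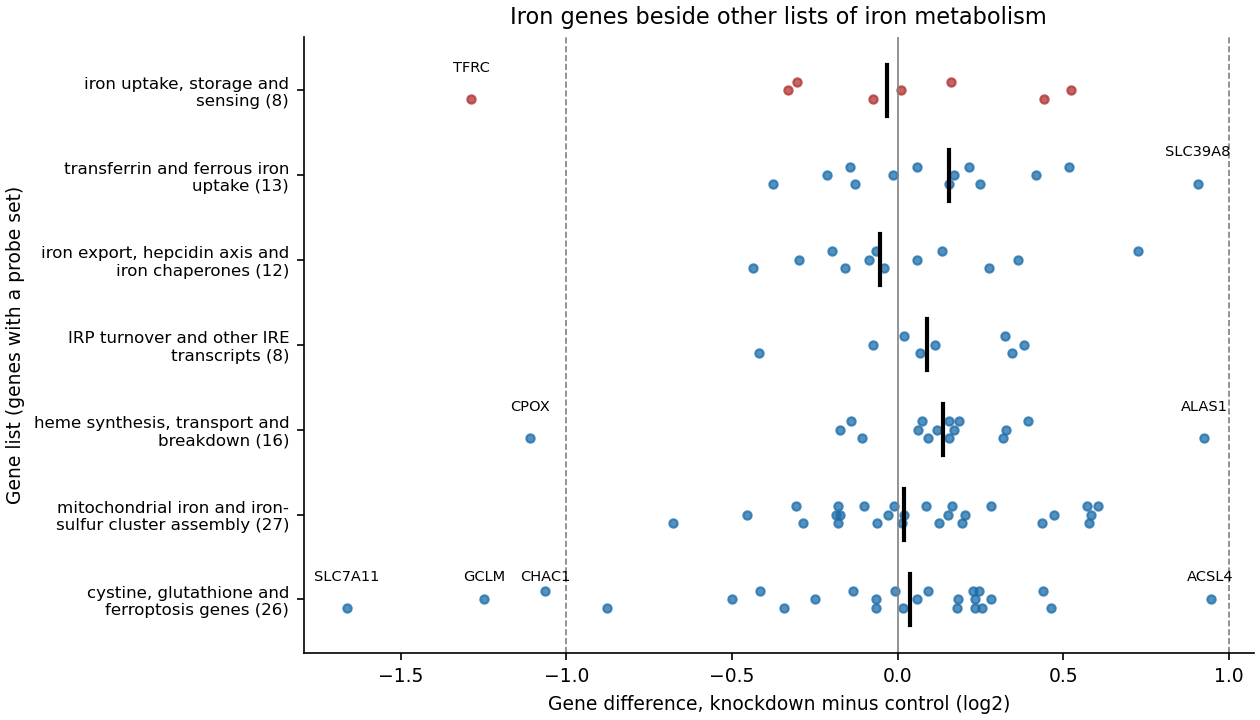
Difference between knockdown and control (log2, horizontal axis) of each measured gene, as points. The iron genes described here are red, and 6 further lists of iron metabolism, glutathione and ferroptosis genes are blue. Black bars are list medians and dashed lines are 2-fold. Genes past 0.9 either way are named. All 7 medians lie between -0.053 and 0.15, and 5 genes lie below the lower dashed line.

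The 18 hybridisation spike-in probe sets differed by -0.0099 ± 0.045 (SD, n = 18 probe sets). Poly-A spike-ins, which pass through the labelling steps, varied more, from -0.13 to 0.40 with a mean of 0.078 ± 0.18 (SD, n = 7 probe sets). For ACTB the 3′ probe set minus the 5′ one, which tracks RNA degradation, changed by -0.12 between arrays, and for GAPDH by -0.097. The medians of 5 marker lists, for luminal prostate, embryonic kidney packaging cells, macrophages, red cell precursors and stroma, lay between 0.012 and 0.15. Among their 31 measured genes, 1 was at least 2-fold lower and 1 at least 2-fold higher, where 1.44% and 1.16% of all genes were. These were FOXA1 at -1.16 ± 1.75 and ACTA2 at 2.14 ± 2.42 (SD, n = 2 probe sets each), each with a spread larger than its difference. Short of 2-fold, the luminal marker TMPRSS2 lay at -0.76 ± 0.16 (SD, n = 4 probe sets), a spread smaller than its difference. Of the 8 luminal markers measured, 6 lay above 0. FOXA1, ACTA2 and TMPRSS2 were named after their values were seen. Centring hides whether a marker is present, so the luminal identity of the cells could not be checked by level, and the part of any of these in the iron gene values was not tested.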

How the data were processed

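RNA from 2 LNCaP cultures was measured on 2 arrays. The authors deposited log2-scale values, made with RMA per the submitters' processing notes, which give no version. In each of 44672 rows both arrays summed to 0 within 1e-06. How they were centred, filtered and logged is not stated in those notes or the labels. The number of arrays limits the precision.

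Columns were assigned by sample. Probe sets were named through the platform annotation, and 34839 of 34880 with 1 gene matched RefSeq by Entrez identifier with no symbol changed. Another 1619 with several genes, 8131 unnamed here and 42 AFFX controls entered no gene value. A gene's value was the mean over its probe sets. Named genes were the 10 members, KDM4A and up to 4 genes of each pathway list with the largest differences; any other gene named was chosen after its values were seen. The members and lists were chosen with earlier results of these data known. Alternatives were the median over probe sets, omission of _x_at and _s_at probe sets, re-centring, other size rules and, added after seeing the data, leaving out single probe sets. The calculation was tested on simulated data with planted changes well past the size rule. That test does not cover changes near the rule or variation between cultures. Python 3.11.15, numpy 2.4.6 and pandas 2.3.3 were used.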

Additional observations from a re-analysis of the deposited data

How the results depend on the processing

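The count of genes at least 2-fold apart (255 lower, 205 higher) was 774 and 760 at 1.5-fold, 81 and 45 at 3-fold, and 140 and 80 when only genes represented by 2 or more probe sets were counted. TFRC was the 1 iron gene past 2-fold under the median over probe sets (-1.50), without probe sets ending in _x_at or _s_at (-1.94, 1 probe set) and after subtracting the median of all probe sets (-1.30); at 3-fold the count was 0. The median of the iron genes was 0.043 with medians over probe sets, -0.19 over the 6 genes left without _x_at and _s_at probe sets, and -0.046 after re-centring. SLC11A2 turned from 0.011 to -0.30 without those probe sets and was 0.21 by the median. KDM4A lay at -0.90 without probe set 203205_at, short of 2-fold. Of the 100 pathway genes, 6 were at least 1.5-fold lower and 5 at least 1.5-fold higher, where 4.38% and 4.30% of all genes were, and SLC39A8 (1.08) was the 1 at least 2-fold higher by the median over probe sets. No paired analysis was possible because each group had 1 array. With no signal levels, no filter on dim probe sets could be tried.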

Other observations

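A probe set that the annotation gives to FTH1P5, a processed pseudogene of the ferritin heavy chain, read 0.20 in the control and -0.20 in the knockdown, a difference of -0.40 or 1.32-fold lower. It ends in _x_at, it was not used for FTH1, and it was picked after its value was seen.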
